A study of Mus musculus with 2239 samples.

Results

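The proteasome genes of mouse regulatory T cells (Tregs) were described from 1 single-cell library. They were taken as every gene whose symbol starts with Psma, Psmb, Psmc, Psmd or Psme and that had at least 1 UMI (unique molecular identifier, a tag that counts 1 captured mRNA molecule) in cells with at least 500 UMIs. The rule gave 43 genes out of 12952 detected genes and 23725 gene rows. Of the remaining symbols that start this way, Psma8 and Psme2b had 0 UMIs in the cells kept, which allows a level of up to 0.0139 CP10K, where CP10K are UMIs per 10000 UMIs and 3 UMIs are taken as the limit. The 43 genes were sorted by role into 5 immunoproteasome genes, 36 constitutive genes and 2 others. Psmc3ip, 1 of the others, fits the rule by its symbol only, as its product is a cofactor of meiotic recombination and not a proteasome subunit. Psmb11, the second of the others, encodes the catalytic subunit of the thymus-specific proteasome.

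All cells came from B6 male mice aged 7 months that carried a fluorescent reporter of Foxp3, the transcription factor of Tregs, and no other allele or treatment was named. Live cells positive for TCR beta, CD4 and the reporter were sorted and encapsulated by inDrops, a droplet method that copies poly(A) RNA. The cells carry the tissue label spleen, while their sample type is written with both spleen and colon, so that colon cells may be among them. The number of mice was not given. With 1 library there was no replicate and no test, so every interval below is a 95% interval of counting error only, and cells are not replicates.

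The proteasome is the protease that degrades proteins tagged with ubiquitin. Its 20S core is a barrel of alpha rings, which gate the entrance, and beta rings, which hold the catalytic sites. The 19S cap has ATPase subunits that unfold substrates and non-ATPase subunits that bind and trim ubiquitin. Interferons induce Psmb8, Psmb9 and Psmb10, which take the places of the catalytic subunits Psmb5, Psmb6 and Psmb7 in newly assembled cores, and Psme1 and Psme2, which form the activator PA28. Lymphocytes are known to hold such immunoproteasomes without infection. They change which peptides are cut for MHC class I presentation. The 36 genes called constitutive here are 7 alpha and 7 beta subunits, 6 ATPases, 11 non-ATPase cap subunits, 3 cap assembly chaperones, Psme3 and Psme4. Of them only Psmb5, Psmb6 and Psmb7 are replaced in this way. A share of UMIs between both groups is therefore not a share of proteasome types.

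RefSeq promoter windows of 300 bases (build GRCm38.p6, 250 bases before the gene start and 50 after it) were available for 37 of the 43 genes. Psmb1, Psmb2, Psmb7, Psmc3, Psmd3 and Psmd7 had no window and were not searched. They were searched on both strands for 4 elements: the CCAAT box, the interferon element ISRE (GAAA, then any 2 bases, then GAAA), the interferon element GAS (TTCNNNGAA), and the antioxidant element ARE (TGACNNNGC), which is bound by Nfe2l1, the transcription factor known to drive constitutive proteasome genes. Of the immunoproteasome windows, Psme1 held an ISRE and Psmb8 a GAS, while those of Psmb9, Psmb10 and Psme2 held neither. Among constitutive genes an ISRE was in the windows of Psmb3, Psmd4 and Psmd9, and a GAS in that of Psmd2. The ISRE letters were in 3.44% of all 32851 windows and the GAS letters in 8.30%. The ARE letters were in the windows of Psmb5, Psmb6, Psmc6, Psmd12, Psmd9 and Psme4 and in none of the immunoproteasome genes. They were in 15% of the members' 40 windows and in 12.4% of all windows. The CCAAT letters were in the windows of 15 of the 37 genes, of the immunoproteasome genes in that of Psmb9, and in 37.4% of all windows. A match is a description of letters and not a bound site. The stretches from 150 bases before the start to 30 after it are shown for Psmb8 (chr17:34198045-34198224, plus strand), Psme1 (chr14:55578344-55578523, plus strand) and Psmb9 (chr17:34187301-34187480, minus strand), as the immunoproteasome genes with a match or with a start shared with the peptide transporter gene Tap1. Psmb5 (chr14:54617966-54618145, minus strand) and Psmb6 (chr11:70525207-70525386, plus strand) are shown as constitutive partners with a match. Each reads 5′ to 3′ on the gene's strand, and capitals mark the GAS in Psmb8, the ISRE in Psme1 and the ARE in Psmb5 and Psmb6.
Psmb8: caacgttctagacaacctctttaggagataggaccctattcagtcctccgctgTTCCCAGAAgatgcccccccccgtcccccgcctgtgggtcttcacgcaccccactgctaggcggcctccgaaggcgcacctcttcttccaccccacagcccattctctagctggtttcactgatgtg
Psme1: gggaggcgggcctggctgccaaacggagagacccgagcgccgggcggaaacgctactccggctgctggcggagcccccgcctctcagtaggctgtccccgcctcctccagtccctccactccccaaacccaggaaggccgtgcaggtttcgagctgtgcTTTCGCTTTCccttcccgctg
Psmb9: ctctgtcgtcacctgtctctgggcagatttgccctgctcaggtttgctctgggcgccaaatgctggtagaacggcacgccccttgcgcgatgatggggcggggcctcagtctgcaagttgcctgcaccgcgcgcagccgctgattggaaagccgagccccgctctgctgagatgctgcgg
Psmb5: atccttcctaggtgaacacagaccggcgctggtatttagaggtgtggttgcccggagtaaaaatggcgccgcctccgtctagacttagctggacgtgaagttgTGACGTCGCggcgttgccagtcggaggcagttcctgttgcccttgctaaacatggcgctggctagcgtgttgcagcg
Psmb6: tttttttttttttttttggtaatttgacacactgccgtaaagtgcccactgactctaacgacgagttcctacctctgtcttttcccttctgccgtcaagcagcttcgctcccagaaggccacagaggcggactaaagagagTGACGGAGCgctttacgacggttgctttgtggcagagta

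The kept cells, 91.8% of the 2239 in the table, were shallowly sampled, with 2156277 UMIs in all and 500 to 4329 per cell. Foxp3 had a UMI in 29.0% of them. Clustering without the proteasome genes gave 10 clusters. From fixed markers 3 T cell clusters were named, resting Treg-like (cluster 2, 536 cells), activated Treg-like (cluster 5, 7.98% of kept cells) and proliferating-like (cluster 7, 75 cells). Of the clusters outside the T cells, B cell-like (88 cells), myeloid-like (43) and NK/ILC-like (20) were named, and they held 7.35% of kept cells. The 4 unnamed clusters and the 3 named T clusters held 92.7% and are called T clusters below. These cluster names depended on the settings: no activated class was found with a minimum of 300 or 1000 UMIs or with 10 or 30 components, no resting class with log values, and no proliferating class at 1000 UMIs or with log values.

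Immunoproteasome transcripts were abundant in these cells. The 5 genes together had 3220 UMIs and a level of 14.9 CP10K (14.4 to 15.5), against 6991 UMIs and 32.4 CP10K (31.7 to 33.2) for the 36 constitutive genes. They thus made up 31.5% of all UMIs of the 43 genes. The 43 genes together made up 0.475% of all UMIs. At least 1 immunoproteasome UMI was seen in 72.7% of cells and at least 1 constitutive UMI in 93.4%. After every cell was thinned to 500 UMIs the shares were 50.1% and 77.5%. No cell type here should lack proteasomes, so no background share of free RNA could be read for these genes. Each UMI stands for 1 molecule whatever the gene's length, so levels of different genes are set side by side without scaling by length, although capture may differ between genes.

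Psmb8, on chromosome 17 from 34198195 to 34201454, was the highest of the 43 genes. It had 1217 UMIs, a level of 5.64 CP10K (5.33 to 5.97), and it was seen in 852 cells (41.5%). It had 1 UMI in 581 cells and 3 or more in 68, with 6 in the highest cell. The PA28 genes followed. Psme1 stood at 4.30 CP10K (4.03 to 4.58) and Psme2, its partner in the same ring, at 2.98 CP10K (2.76 to 3.22). Both lie on chromosome 14, with Psme1 from 55578494 to 55581527 and Psme2 from 55587440 to 55591101. The other catalytic genes were far lower, with Psmb10 at 1.34 CP10K (1.19 to 1.5) and Psmb9 at 0.668 CP10K (0.563 to 0.786). The 5 levels did not overlap in their intervals, so the order Psmb8, Psme1, Psme2, Psmb10, Psmb9 was larger than counting error.

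Among constitutive genes the core subunits led. Psmb1, a non-catalytic beta subunit, stood at 3.2 CP10K (2.97 to 3.45), Psmb4 at 1.99 CP10K (1.81 to 2.19), Psma7 at 1.56 CP10K (1.40 to 1.73), Psmb3 at 1.5 CP10K (1.34 to 1.67) and Psma3 at 1.43 CP10K (1.27 to 1.60). The intervals of Psmb1 and Psme2 overlapped, as did those of Psma7, Psmb3 and Psma3. By role, the median level was 1.2 CP10K for the 7 alpha subunits (0.533 to 1.56), 0.955 CP10K for the 7 constitutive beta subunits (0.580 to 3.2), 0.594 CP10K for the 6 ATPases (0.468 to 1.14) and 0.70 CP10K for the 11 non-ATPase cap subunits (0.422 to 1.41). The 19S assembly chaperones, which help build the cap and leave it, were lowest, with Psmd10 at 0.408 CP10K, Psmd5 at 0.292 CP10K and Psmd9 at 0.232 CP10K. The other activators stood at 1.03 CP10K for Psme3, which encodes the nuclear activator PA28 gamma, and 0.371 CP10K for Psme4, which encodes PA200. Psmb11 had 17 UMIs in 17 cells (0.0788 CP10K) and Psmc3ip 10 UMIs in 10 cells (0.0464 CP10K).

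**Figure D1:**
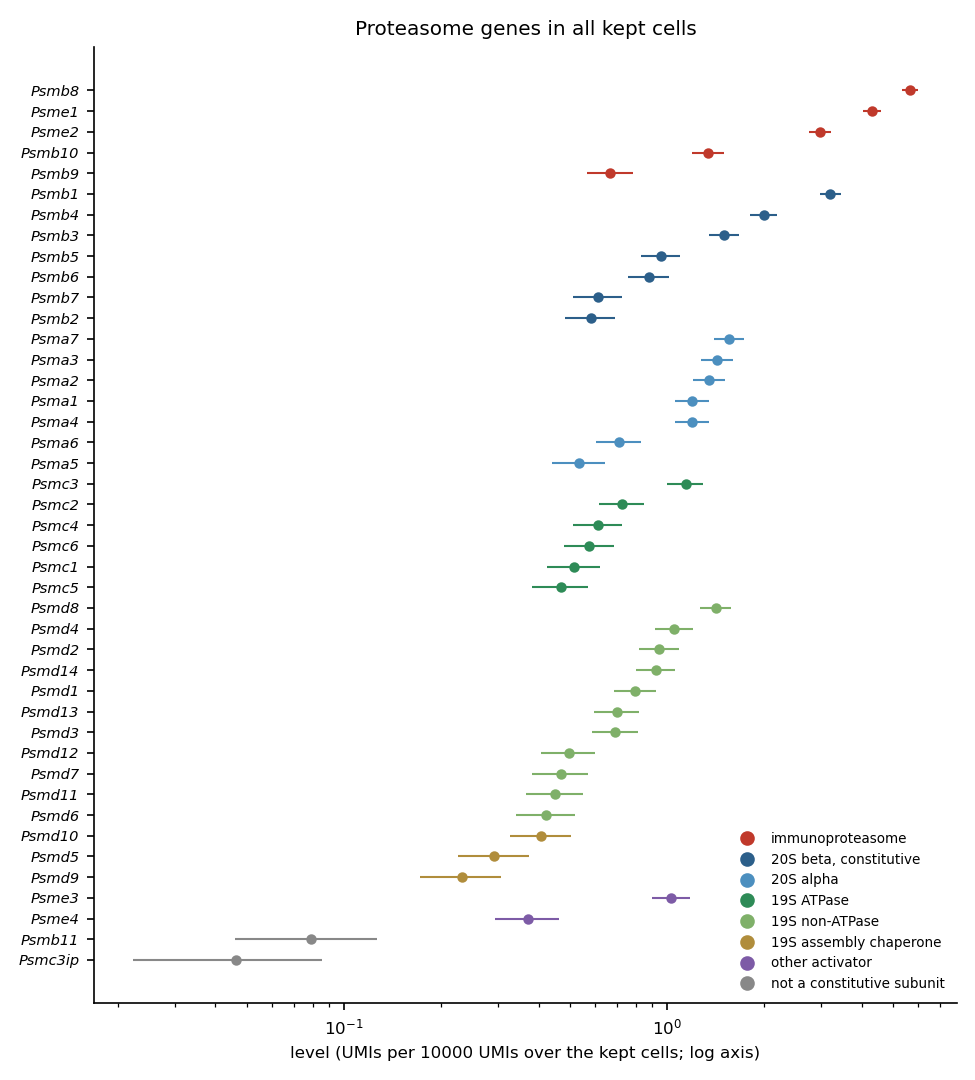
Level of each of the 43 genes over all kept cells, in CP10K on a log axis, with the 95% Poisson interval as bars and genes ordered by role and level. Psmb8 at 5.64 CP10K and Psme1 at 4.30 CP10K lie above every constitutive gene, while Psmb9 at 0.668 CP10K lies among them.

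Some of these counts are uncertain for annotation reasons. In the GENCODE annotation of GRCm38 22 of the 43 genes overlap another annotated gene. Psmb8 overlaps the antisense gene Gm20496 and Psmb9 overlaps Tap1 over 212 bases at their divergent starts. Whether the counting used strand was not given in the sources used here, so reads of such partners cannot be told apart. Of 4 named pseudogenes of Psmb5, Psmb6 and Psmb7 none had a row of its own.

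The catalytic subunits were then compared within each pair whose members occupy the same site. In T clusters Psmb8 made up 85.3% of the UMIs of its pair with Psmb5 (exact binomial interval 83.3 to 87.2, 1129 UMIs of Psmb8). Psmb10 made up 69% of its pair with Psmb7 (64.2 to 73.6). Psmb9 made up 42.6% of its pair with Psmb6 (37 to 48.4, 130 UMIs of Psmb9). Transcripts of the immunoproteasome gene were thus the larger part at the sites of Psmb8 and Psmb10 and the smaller part at the site of Psmb9, and the 3 intervals did not overlap.

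Within each pair these shares had overlapping intervals across the T clusters. The Psmb8 share ran from 81.6% (76.1 to 86.3) in unnamed cluster 3 to 90.5% (77.4 to 97.3) in the proliferating-like cluster among T clusters, and it was 85.2% (72.9 to 93.4) in B cell-like cells and 88.5% (69.8 to 97.6) in myeloid-like cells. The Psmb9 share in the 5 T clusters with over 100 cells ran from 32.6% (19.1 to 48.5) in unnamed cluster 4 to 51.7% (32.5 to 70.6) in activated Treg-like cells. The Psmb10 share in the same clusters ran from 60.7% (46.8 to 73.5) in unnamed cluster 4 to 73.1% (59.0 to 84.4) in activated Treg-like cells. In the 20 NK/ILC-like cells Psmb10 had 0 UMIs and Psmb7 had 4, too few to place the share, with an upper limit of 60.2%.

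**Figure D2:**
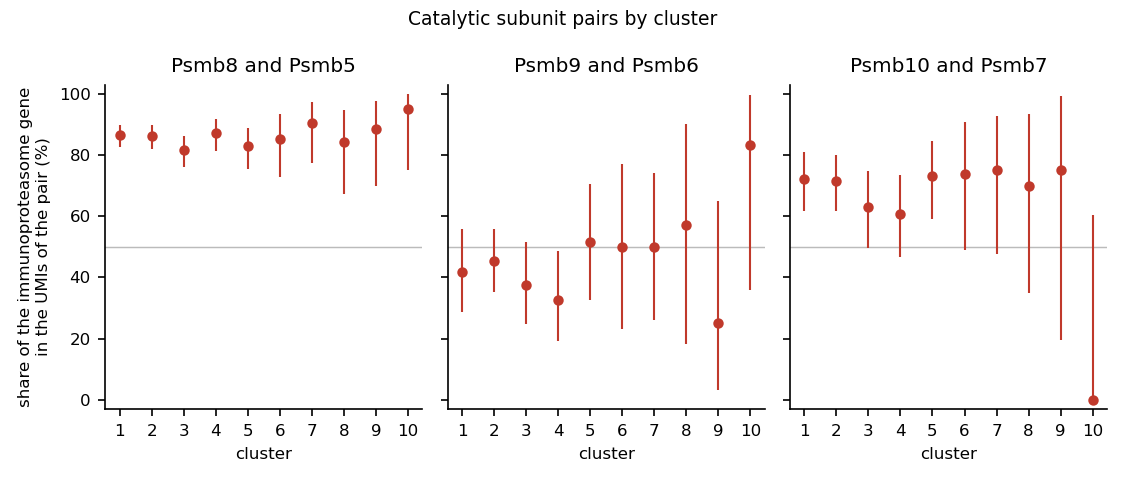
Share of the immunoproteasome gene in the UMIs of its catalytic pair, in percent, for clusters 1 to 10, with exact binomial 95% intervals and a line at 50%. Psmb8 holds over 80% of its pair in each cluster, and the bars of clusters 6 to 10, which hold fewer cells, are wide.

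Among T clusters the summed level of the 5 immunoproteasome genes was highest in the cluster with effector markers. It was 19.8 CP10K (17.7 to 22) in activated Treg-like cells, whose leading genes include S100a4, S100a6, Klrg1 and Icos. In the other T clusters with over 100 cells it was 15.8 CP10K (14.4 to 17.2) in cluster 3, 14.97 CP10K (13.95 to 16.03) in resting Treg-like cells, 14.3 CP10K (13.3 to 15.4) in cluster 1 and 13.2 CP10K (11.9 to 14.6) in cluster 4. On the scale of all UMIs the interval of activated Treg-like cells was above those of the 4 others. Ribosomal protein genes made up 26% of UMIs in activated Treg-like cells and 33.9% in cluster 3. They made up 36% in cluster 1, 37.1% in resting Treg-like cells and 41.9% in cluster 4. The order of clusters can therefore differ on a scale without ribosomal UMIs. Small clusters gave 12.8 CP10K (10.5 to 15.4) in proliferating-like cells and 14.5 CP10K (11.3 to 18.4) in cluster 8.

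The constitutive sum had another order. It was highest in unnamed cluster 3 at 37.9 CP10K (35.8 to 40.05), a cluster led by the T cell activation genes Egr1, Nr4a1 and Tnfrsf9 with the growth genes Mif and Srm. On the scale of all UMIs activated Treg-like cells followed at 35.9 CP10K (33.1 to 38.8), which overlapped cluster 3. Their second place depends on that scale. Without ribosomal UMIs their constitutive log2 ratio to resting Treg-like cells was -0.005. Cluster 1 stood at 31.4 CP10K (29.9 to 32.99), resting Treg-like cells at 30.6 CP10K (29.2 to 32.1) and cluster 4 at 28.9 CP10K (26.9 to 30.9). The share of immunoproteasome UMIs in both sums was 29.4% (27.3 to 31.5) in cluster 3 and 35.6% (32.5 to 38.7) in activated Treg-like cells, which did not overlap, with 32.8% (31.0 to 34.7) in resting Treg-like cells. This share does not depend on the total used for scaling.

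**Figure D3:**
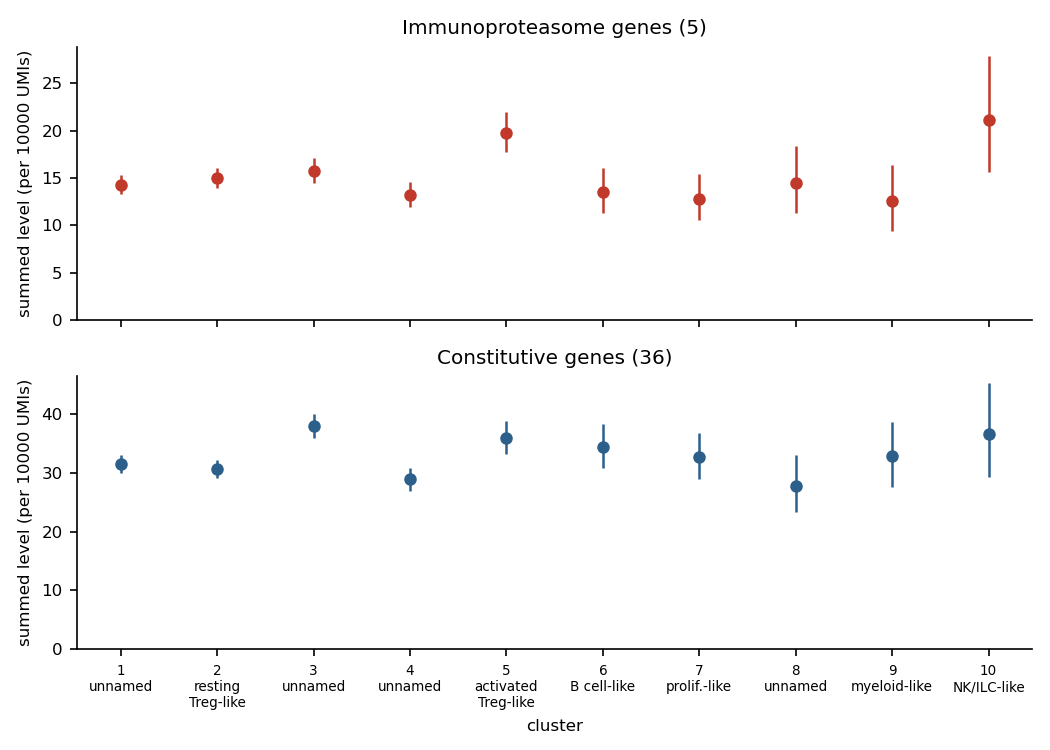
Summed level of the 5 immunoproteasome genes (upper panel) and of the 36 constitutive genes (lower panel) in each cluster, in CP10K, with 95% Poisson intervals. The activated Treg-like cluster lies highest among T clusters in the upper panel at 19.8 CP10K and unnamed cluster 3 in the lower panel at 37.9 CP10K. Levels are on the scale of all UMIs. Ribosomal protein genes made up 26% of UMIs in activated Treg-like cells and 33.9% in cluster 3.

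Cell states were also read without clusters, from marker lists that hold no proteasome gene. Each cell of the T clusters was thinned to 500 UMIs, and cells with 2 or more UMIs of a list were compared with cells that had 0. All UMIs of these cells were used for the levels. Genes with 20 or more UMIs over both sides count as measured, and those with a ratio of 1.5 or more in either direction as past 1.5-fold. The 7 lists were antiviral interferon-stimulated genes (33 genes, such as Ifit1 and Isg15), interferon-induced GTPases (17, such as Gbp2 and Igtp), effector genes (30), resting genes (17), proliferation genes (38), immediate early genes (21) and biosynthetic genes of ribosome assembly and growth (22).

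**Figure D4:**
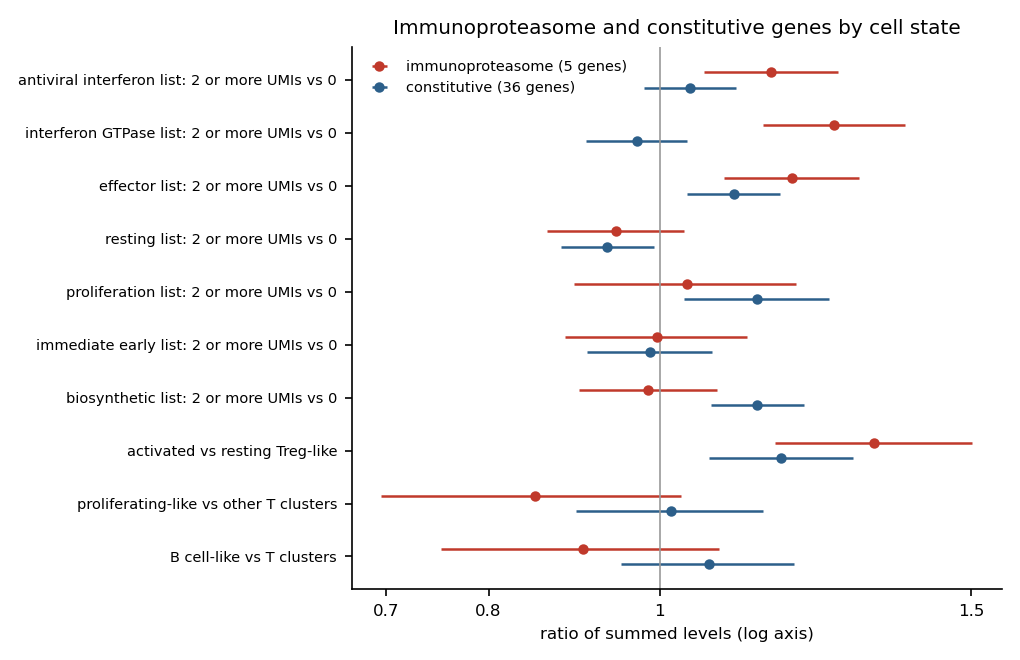
Ratio of the summed immunoproteasome and constitutive levels between both sides of each state comparison, on a log axis, with exact 95% intervals. The immunoproteasome ratio lies above the constitutive one for both interferon lists and below it for the biosynthetic list, where it is 0.984 against 1.14.

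Cells with interferon-induced GTPase transcripts had more immunoproteasome transcripts and about the same level of constitutive ones. These GTPases are induced mainly by interferon gamma and attack membranes around pathogens. In the 402 cells with 2 or more such UMIs the 5 genes stood at 17.3 CP10K, against 13.8 CP10K in the 920 cells with 0, a ratio of 1.26 (1.14 to 1.38). The constitutive genes stood at 31.9 against 32.9 CP10K, a ratio of 0.970 (0.909 to 1.04). The ratio of both ratios, which is free of the scaling, was 1.29 (1.15 to 1.45). Median depth was 940 and 997 UMIs per cell, and 35.2% and 36.7% of UMIs came from ribosomal protein genes.

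Each of the 5 genes was higher in these cells, though only 2 had intervals clear of 1. Psme2 stood at 3.62 against 2.67 CP10K, a ratio of 1.35 (1.10 to 1.66), and Psmb8 at 6.78 against 5.18 CP10K, a ratio of 1.31 (1.12 to 1.52). The other ratios were 1.28 (0.797 to 2.03) for Psmb9, 1.28 (0.938 to 1.73) for Psmb10 and 1.11 (0.925 to 1.33) for Psme1. Without Psmb8, the most abundant of them, the sum of the other 4 had a ratio of 1.22 (1.09 to 1.38). None of the 5 reached 1.5-fold, and the 41 measured members held 0 past 1.5-fold higher, with 9.16% of all measured genes past it. Psmd6 at 0.557, Psmd13 at 0.573 and Psmc1 at 0.595 were past 1.5-fold lower, which is 3 of 41, with 10.7% of all measured genes.

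The constitutive partners lay near 1, with Psmb5 at 1.13 (0.772 to 1.64), Psmb6 at 1.0 (0.669 to 1.48) and Psmb7 at 1.08 (0.651 to 1.73). Psme3 stood at 0.940 (0.622 to 1.39) and Psme4 at 0.876 (0.413 to 1.73). The highest other members were Psmd5 at 1.40, Psma5 at 1.39 and Psmd7 at 1.24, each with an interval that held 1. By role the ratios were 1.01 for alpha subunits, 1.05 for constitutive beta subunits, 0.889 (0.730 to 1.08) for ATPases and 0.878 (0.768 to 1.0) for non-ATPase cap subunits. Of the 36 constitutive genes 16 had a ratio above 1, with a median log2 ratio of -0.05 against -0.01 over all measured genes. The pair shares overlapped, with Psmb8 at 86.3% of its pair against 84.5%, an odds ratio of 1.15 (0.770 to 1.75). The odds ratios of the Psmb9 and Psmb10 pairs were 1.28 (0.685 to 2.38) and 1.19 (0.668 to 2.15).

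The immunoproteasome level was graded with the GTPase count. It was 13.8 CP10K (13.1 to 14.5) at 0 list UMIs, 15.4 (14.4 to 16.4) at 1, 16.4 (14.8 to 18.2) at 2, 17.03 (14.5 to 19.9) at 3 and 19.6 (16.9 to 22.7) at 4 or more, the last in 98 cells. Constitutive genes ran between 30.8 and 33.4 CP10K over the same cells with no such order. The immunoproteasome share in both sums was 29.6% (28.2 to 30.9) at 0 and 37% (32.7 to 41.5) at 4 or more. Psme2 went from 2.67 CP10K at 0 through 3.0 at 1 and 3.28 at 2 to 3.90 at 3 and 4.12 at 4 or more. Psmb9 stood at 0.587 CP10K at 0, 0.515 at 2 and 1.30 (0.673 to 2.27) at 4 or more, the last from 12 UMIs.

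**Figure D5:**
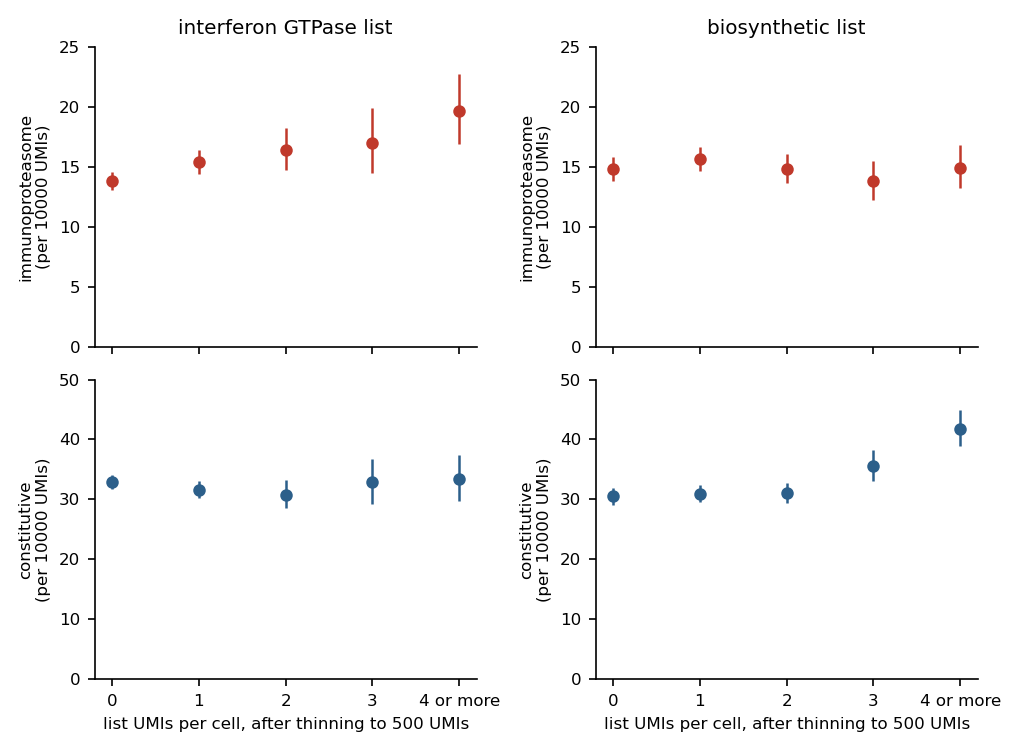
Summed immunoproteasome level (upper panels) and constitutive level (lower panels), in CP10K with 95% Poisson intervals, by the number of list UMIs per thinned cell for the interferon GTPase list (left) and the biosynthetic list (right). The immunoproteasome level goes from 13.8 to 19.6 CP10K along the GTPase list, and the constitutive level from 30.5 to 41.8 CP10K along the biosynthetic list.

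Other genes of the pathway differed with the same list. The peptide transporter gene Tap1, which shares its start region with Psmb9, was 1.90-fold higher (1.47 to 2.45), and the peptide-trimming protease gene Erap1 2.81-fold (1.54 to 5.15). Socs1, a feedback inhibitor of interferon receptors, was 1.87-fold higher (1.19 to 2.93). Smaller ratios were seen for Irf1 at 1.47 (1.06 to 2.02), the MHC class I transactivator Nlrc5 at 1.34 (0.851 to 2.08) and Tap2 at 1.24 (0.924 to 1.65). Of 12 antigen presentation genes 3 were past 1.5-fold higher and 0 lower, beside the 9.16% and 10.7% of all measured genes. The core assembly factor Pomp stood at 0.884 (0.666 to 1.16), and of 16 proteasome-associated genes 2 were lower, Nploc4 at 0.496 and the inhibitor gene Psmf1 at 0.519, both with intervals that held 1, which is a share near the 10.7% of all measured genes.

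The point value of the difference had the same sign within each of the 4 largest clusters, a comparison added after the data were seen. No interval is given for the values within clusters, so the smallest, in cluster 4, cannot be placed clear of 0. The log2 ratio of immunoproteasome to constitutive genes, 0.37 over all T clusters, was 0.41 within cluster 1, 0.42 within resting Treg-like cells, 0.62 within cluster 3 and 0.07 within cluster 4. Of 12 myeloid markers, all detected, the summed level was 5.13 CP10K in the GTPase cells against 3.43 CP10K in the cells with 0. Myeloid-like cells themselves stood at 12.6 CP10K (9.43 to 16.4) of immunoproteasome genes, against 14.98 CP10K in the T clusters, which lies within that interval. The part of myeloid RNA in the difference was not tested. The 12 B cell markers stood at 0.528 against 0.516 CP10K.

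Antiviral interferon genes, which respond mainly to type I interferon, went with a difference of smaller point value. Its intervals overlapped those of the GTPase list, so the 2 lists cannot be ranked. The 604 cells with 2 or more such UMIs had 16.3 CP10K of immunoproteasome genes against 14.1 CP10K in the 706 cells with 0, a ratio of 1.16 (1.06 to 1.26). Constitutive genes stood at 32.8 against 31.6 CP10K, a ratio of 1.04 (0.980 to 1.10). The ratio of both was 1.11 (1.0 to 1.24), an interval that held 1. Psmb9 was the 1 member past 1.5-fold, at 0.908 against 0.529 CP10K, a ratio of 1.72 (1.12 to 2.65), with 8.95% of all measured genes past it. Psmb8 stood at 1.2 (1.04 to 1.38) and Psme2 at 1.25 (1.02 to 1.53), while Psme1 at 1.05 (0.884 to 1.24) and Psmb10 at 0.931 (0.690 to 1.25) did not differ beyond counting error. Ribosomal protein genes made up 34.6% of UMIs in the 604 cells and 37% in the 706. Leaving them out moved every log2 ratio by -0.05, which takes the lower limit of Psme2 below 1 and that of Psmb8 close to 1.

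No member was past 1.5-fold lower in this comparison, with 7.30% of all measured genes past it. The constitutive partners were Psmb5 at 1.19 (0.831 to 1.71), Psmb6 at 1.02 (0.688 to 1.5) and Psmb7 at 1.17 (0.734 to 1.88), and Psme3 and Psme4 stood at 0.854 and 1.33. The highest other members were Psmc3 at 1.37, Psmd1 at 1.35 and Psmd6 at 1.25, and the lowest Psmb2 at 0.705, Psmc5 at 0.723 and Psma4 at 0.727. Along this list the immunoproteasome level was 14.1 CP10K at 0 UMIs, 14.7 at 1, 16.02 at 2, 15.1 at 3 and 18.6 (16.3 to 21.2) at 4 or more. The immunoproteasome share in both sums was 30.8% (29.3 to 32.4) at 0, 29.4% (26.4 to 32.6) at 3 and 38.1% (34.2 to 42.2) at 4 or more. Of the other pathway genes Stat2 stood at 1.84 (1.06 to 3.25) and Tapbp, which loads peptides onto MHC class I, at 1.53 (1.30 to 1.79). Tap1 stood at 1.48 (1.15 to 1.92), Nlrc5 at 1.28, Irf1 at 1.10, Pomp at 1.09 and Tap2 at 0.993. The deubiquitinase gene Usp14 stood at 0.632 (0.305 to 1.26). Of 49 measured pathway genes 2 were past 1.5-fold higher and 1 lower, beside 8.95% and 7.30% of all measured genes. The lists are not independent, as 42.5% of the GTPase cells also had 2 or more antiviral UMIs, against 27.2% of the cells with 0 GTPase UMIs. Myeloid markers summed to 4.78 against 3.12 CP10K in this comparison. Their part in it was not tested.

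Biosynthetic genes went with the constitutive members. In the 735 cells with 2 or more UMIs of that list constitutive genes stood at 34.6 CP10K, against 30.5 CP10K in the 568 cells with 0, a ratio of 1.14 (1.07 to 1.21). The immunoproteasome genes stood at 14.6 against 14.8 CP10K, a ratio of 0.984 (0.900 to 1.08). The ratio of both was 0.867 (0.778 to 0.966). It was not stable: its log2 value, -0.21, was 0.06 when list UMIs were read in unthinned cells and 0.16 within resting Treg-like cells. Within cluster 3 it was -0.64 and within cluster 4 it was -0.56. The constitutive log2 ratio, 0.18 over all T clusters, was above 0 in 16 of 17 alternatives. Within resting Treg-like cells it was -0.02.

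Cap ATPases and alpha subunits had the larger ratios. The 6 ATPases together had a ratio of 1.32 (1.11 to 1.58) and the 7 alpha subunits 1.2 (1.06 to 1.36), with 1.11 (0.982 to 1.25) for non-ATPase cap subunits and 1.06 (0.949 to 1.18) for constitutive beta subunits. Past 1.5-fold higher were Psmc1 at 1.82 (1.03 to 3.34), Psmc2 at 1.77 (1.12 to 2.85), Psma5 at 1.67 (0.971 to 2.99), Psmd2 and Psmc4, which is 5 of 41 members with 11.6% of all measured genes past it. That share is near the background, while 25 of 36 constitutive genes had a ratio above 1 and their median log2 ratio was 0.20 against 0.02 over all measured genes. Psme4 at 0.650 (0.364 to 1.16) was the 1 member past 1.5-fold lower, with 7.78% of all measured genes. The next lowest were Psmd11 at 0.668, Psma6 at 0.728 and Psmd9 at 0.728.

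The ratios of the catalytic genes ran from 0.762 to 1.43 here, each with an interval that held 1. Psmb7 stood at 1.43 (0.900 to 2.32), Psmb6 at 1.22 (0.845 to 1.77), Psmb5 at 0.959 (0.677 to 1.36), Psmb8 at 1.03 (0.889 to 1.19), Psmb9 at 0.870 (0.563 to 1.35) and Psmb10 at 0.762 (0.561 to 1.03). Psmb10 therefore made up 61.5% of its pair with Psmb7 (53.1 to 69.4) in the cells with 2 or more UMIs, against 75% (66.1 to 82.6) in those with 0, an odds ratio of 0.532 (0.299 to 0.937). It was the 1 odds ratio with an interval clear of 1 among the 30 that were formed from 3 pairs and 10 comparisons. Among 30 intervals at 95%, 1 clear of 1 can come from counting error alone. Psme1 stood at 0.939 (0.793 to 1.11), Psme2 at 1.12 (0.914 to 1.38) and Psme3 at 1.43 (0.997 to 2.06).

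Constitutive levels were flat over the lower counts of this list and higher above them. They were 30.5 CP10K at 0 UMIs, 30.9 at 1, 31.04 at 2, 35.6 (33.01 to 38.3) at 3 and 41.8 (38.8 to 44.8) at 4 or more. Immunoproteasome genes stood at 14.8, 15.6, 14.8, 13.8 and 14.9 CP10K over the same cells, and their share was 32.7% (30.9 to 34.5) at 0 and 26.3% (23.7 to 29.2) at 4 or more. Alpha subunits went from 7.27 CP10K at 0 to 11.3 (9.79 to 12.9) at 4 or more, and ATPases from 3.41 CP10K to 5.25 (4.25 to 6.42). Of the other pathway genes Ifnar2, an interferon receptor chain, stood at 2.13 (1.33 to 3.50), Ufd1l, a cofactor of the unfoldase Vcp, at 1.91 (1.05 to 3.64), Canx at 1.68 (1.19 to 2.40) and the ubiquitin receptor gene Adrm1 at 1.68 (1.07 to 2.70), while Ubqln2 was lower at 0.427 (0.220 to 0.803). Of 49 measured pathway genes 5 were past 1.5-fold higher and 3 lower, shares near the 11.6% and 7.78% of all measured genes. Tap1 at 0.985, Irf1 at 1.04, Nlrc5 at 1.07, Tap2 at 1.08 and Pomp at 1.13 did not differ beyond counting error.

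Effector markers went with higher levels of both groups on the scale of all UMIs. Activated Treg-like cells had 19.8 CP10K of immunoproteasome genes and resting Treg-like cells 14.97 CP10K, a ratio of 1.32 (1.16 to 1.5). The constitutive sums were 35.9 and 30.6 CP10K, a ratio of 1.17 (1.07 to 1.29). The share of ribosomal protein UMIs was 26% in the former and 37.1% in the latter. With their UMIs left out of the total every log2 ratio moved by -0.23, the immunoproteasome value from 0.40 to 0.17 and the constitutive value from 0.23 to -0.005. The ratio of both, which is free of the scaling, was 1.13 (0.962 to 1.32) and held 1. Its log2 value was -0.03 with 500 variable genes.

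PA28 and Psmb10 were the higher genes in that comparison on the scale of all UMIs. The move of -0.23 without ribosomal UMIs takes the lower limits of Psmb10, Psme1 and Psme2 below 1. Psmb10 stood at 2.20 against 1.39 CP10K, a ratio of 1.59 (1.04 to 2.37), Psme1 at 5.90 against 4.12 CP10K, a ratio of 1.43 (1.12 to 1.82), and Psme2 at 4.4 against 3.12 CP10K, a ratio of 1.41 (1.06 to 1.86). Psmb8 at 1.16 (0.927 to 1.45) and Psmb9 at 1.07 (0.552 to 1.96) held 1. Of 40 measured members 11 were past 1.5-fold higher, with 27.5% of all measured genes past it, and 1 lower, with 12%. Without ribosomal UMIs these counts were 2 and 3, with 16.5% of all measured genes past it higher and 21.5% lower. The highest other members were Psma1 at 2.18 (1.34 to 3.50), Psmc5 at 1.72 and Psmd3 at 1.72, and the lowest were Psmd4 at 0.470 (0.205 to 0.953), Psma6 at 0.783 and Psmd5 at 0.783. Psmb5 stood at 1.5, Psmb6 at 0.827, Psmb7 at 1.46, Psme3 at 1.15 and Psme4 at 1.98, each with an interval that held 1.

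Of the other genes AI314180, which encodes the proteasome adaptor Ecm29, stood at 2.47 (1.17 to 5.13), the kinase gene Jak2 at 2.41 (1.28 to 4.49), the chaperone gene Canx at 2.09 (1.33 to 3.24) and Pomp at 1.66 (1.16 to 2.36). Nlrc5 stood at 1.66, Irf1 at 1.41, Tap1 at 1.37 and Tap2 at 1.14. Of 43 measured pathway genes 13 were past 1.5-fold higher and 2 lower, beside 27.5% and 12% of all measured genes. Myeloid markers, all 12 detected, summed to 7.23 CP10K in activated and 3.14 CP10K in resting Treg-like cells, B cell markers to 0.984 and 0.296 CP10K, and the antiviral list to 33.6 and 23.8 CP10K. Their part in the difference was not tested.

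The effector list without clusters gave the same order of the sums. The cells with 2 or more effector UMIs (23.8% of T cluster cells) had 16.9 CP10K of immunoproteasome genes against 14.2 CP10K in the 922 cells with 0, a ratio of 1.19 (1.09 to 1.30), and 35.1 against 31.9 CP10K of constitutive genes, a ratio of 1.10 (1.04 to 1.17). Without ribosomal UMIs, which moved every log2 ratio by -0.14, the log2 values were 0.11 and -0.002, and within cluster 1 the immunoproteasome value was -0.009. On the scale of all UMIs Psme2 at 1.33 (1.09 to 1.62) and Psme1 at 1.19 (1.01 to 1.41) had intervals clear of 1. The move of -0.14 without ribosomal UMIs takes the lower limits of both genes below 1. Of the other immunoproteasome genes Psmb9 stood at 1.27, Psmb10 at 1.16 and Psmb8 at 1.11 (0.954 to 1.28). No member was past 1.5-fold higher, with 16.3% of all measured genes past it, and 3 were lower, with 7.14%: Psmd5 at 0.567, Psmd9 at 0.572 and Psma6 at 0.593 (0.364 to 0.935). The highest other members were Psmd10 at 1.48, Psma5 at 1.48 and Psmd3 at 1.43. Psmb5 stood at 1.07, Psmb6 at 1.22, Psmb7 at 0.970, Psme3 at 1.17 and Psme4 at 1.40. Of other genes AI314180 stood at 1.82 (1.10 to 2.99), Pomp at 1.24, Tap1 at 1.11 and Irf1, Tap2 and Nlrc5 between 0.973 and 1.08. Of 49 measured pathway genes 2 were past 1.5-fold higher and 1 lower, beside 16.3% and 7.14% of all measured genes. Myeloid markers summed to 5.35 against 3.24 CP10K here, and their part was not tested.

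The remaining lists showed little difference in the balance of both groups. Cells with 2 or more resting UMIs (946, against 449 with 0) had ratios of 0.944 (0.864 to 1.03) for immunoproteasome and 0.934 (0.880 to 0.992) for constitutive genes, the latter reversed within cluster 1 and in cells of 700 to 1300 UMIs. Past 1.5-fold lower were Psmd14, the deubiquitinase of the cap, at 0.572 (0.410 to 0.80), Psma1 at 0.594 (0.439 to 0.805) and Psmd10 at 0.600, which is 3 of 41 with 13.3% of all measured genes, and Psmd4 at 1.5 (1.03 to 2.23) was the 1 past it higher, with 8.25%. Psmd11 at 1.47 and Psmd9 at 1.43 were next. The 7 alpha subunits together had a ratio of 0.869 (0.770 to 0.981). Ribosomal protein genes made up 36.9% of UMIs in the cells with 2 or more resting UMIs and 34.3% in those with 0. Leaving them out moved every log2 ratio by 0.06, which takes the upper limits of the constitutive sum and the alpha subunits above 1. Psmb5 stood at 0.678 (0.482 to 0.956), Psmb6 at 1.22, Psmb7 at 1.12, Psme3 at 0.907 and Psme4 at 0.729. Psmb8 stood at 0.894 (0.773 to 1.03), Psme1 at 0.866 (0.736 to 1.02), Psme2 at 1.0, Psmb10 at 1.2 and Psmb9 at 1.32. Irf1 was lower at 0.608 (0.449 to 0.826). Of 49 measured pathway genes 1 was past 1.5-fold higher and 8 lower, beside 8.25% and 13.3% of all measured genes.

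In the 110 cells with 2 or more proliferation UMIs, against the 69.7% of T cluster cells with 0, constitutive genes stood at 36.02 against 31.7 CP10K, a ratio of 1.13 (1.03 to 1.25), and immunoproteasome genes at 15.5 against 14.95 CP10K, a ratio of 1.04 (0.894 to 1.19). The ratio of both was 0.913 (0.766 to 1.08). The 7 alpha subunits together had a ratio of 1.24 (1.02 to 1.48). Ribosomal protein genes made up 32.5% of UMIs in these 110 cells and 36.7% in those with 0. Leaving them out moved every log2 ratio by -0.09, which takes the lower limits of the constitutive sum and the alpha subunits below 1. Members past 1.5-fold were 5 of 41 higher and 2 lower, with 18.9% and 19.6% of all measured genes past it. The higher were Psmd12 at 1.97, Psmb9 at 1.69, Psmc6 at 1.65, Psma1 at 1.61 (1.01 to 2.47) and Psmb6 at 1.58, and the lower Psme4 at 0.375 and Psmd11 at 0.664. Psma3 at 0.814 and Psmd4 at 0.855 were the next lowest. Psme1 stood at 1.24, Psme2 at 0.937, Psmb8 at 0.921, Psmb10 at 0.791, Psmb5 at 0.975, Psmb7 at 1.43 and Psme3 at 1.24. The proliferating-like cluster of 75 cells had ratios of 0.850 (0.696 to 1.03) for immunoproteasome and 1.01 (0.897 to 1.14) for constitutive genes against other T clusters, and both intervals overlapped those of the list. Its members past 1.5-fold were 5 of 41 higher and 6 lower, with 17.6% and 29.1% of all measured genes, and they rest on 2 to 18 UMIs each in that cluster. The highest were Psmd9 at 2.85 (0.877 to 7.24), Psmd10 at 1.71 and Psmc3 at 1.63, and the lowest Psmd12 at 0.454, Psmd11 at 0.489 and Psmd7 at 0.494. Psmb9 stood at 1.65, Psmb10 at 1.03, Psme2 at 0.819, Psme1 at 0.797 and Psmb8 at 0.774 (0.545 to 1.07). Psmb5 stood at 0.468, Psmb6 at 1.21, Psmb7 at 0.754, Psme3 at 0.570 and Psme4 at 1.27, each with an interval that held 1.

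Immediate early genes, which mark recent stimulation, did not go with the sum of either group. The cells with 2 or more of their UMIs (10.9% of T cluster cells), against 1183 with 0, had 15.4 against 15.5 CP10K of immunoproteasome genes, a ratio of 0.996 (0.884 to 1.12), and 32.3 against 32.7 CP10K of constitutive genes, a ratio of 0.988 (0.910 to 1.07). Within the constitutive group the 7 alpha subunits were lower, at 6.71 against 8.28 CP10K, a ratio of 0.811 (0.676 to 0.966). The intervals of the other constitutive roles held 1. Psmb8 stood at 1.07 (0.883 to 1.29), Psmb9 at 1.03, Psmb10 at 1.23, Psme1 at 0.874 and Psme2 at 0.927. Members past 1.5-fold were 3 of 41 higher, with 13.6% of all measured genes, and 6 lower, with 15.5%. The highest was Psmc2 at 1.80 (1.10 to 2.85), followed by Psmd9 at 1.53, Psme4 at 1.52 and Psmd3 at 1.49, and the lowest were Psmc5 at 0.429 (0.135 to 1.05), Psmd7 at 0.573 and Psma6 at 0.589. Psmb5 stood at 1.15, Psmb6 at 1.28, Psmb7 at 0.812 and Psme3 at 1.26.

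B cell-like cells, which the sort should not hold, had immunoproteasome levels close to those of the T clusters on the scale of all UMIs. Their 88 cells stood at 13.5 CP10K (11.3 to 16.1) against 14.98 CP10K, a ratio of 0.904 (0.752 to 1.08), and at 34.4 against 32.3 CP10K of constitutive genes, a ratio of 1.07 (0.95 to 1.19), which fell below 1 without ribosomal UMIs at a log2 value of -0.02. The immunoproteasome log2 value was -0.145, and -0.253 without ribosomal UMIs. Psme1 stood at 0.731 (0.490 to 1.05), Psmb8 at 0.860 (0.626 to 1.15), Psmb10 at 1.09, Psme2 at 1.11 and Psmb9 at 1.14. Members past 1.5-fold were 5 of 41 higher, with 22.6% of all measured genes, and 7 lower, with 31.8%. The highest were Psmd9 at 2.40, Psmd3 at 1.92 and Psmb2 at 1.70, and the lowest Psmd10, Psmc6 and Psmd5, which had 1 or 2 UMIs each in these cells. Psmb5 stood at 0.871, Psmb6 at 0.845, Psmb7 at 0.865, Psme3 at 1.27 and Psme4 at 0.856. Pomp was 1.67-fold higher (1.13 to 2.40), and Nlrc5 had 1 UMI in B cell-like cells, a ratio of 0.161 (0.00405 to 0.914). Of 49 measured pathway genes 11 were past 1.5-fold higher and 14 lower, beside 22.6% and 31.8% of all measured genes. The 20 NK/ILC-like cells had the highest point value of any cluster, 21.1 CP10K (15.6 to 27.9) from 49 UMIs, and the 43 myeloid-like cells 12.6 CP10K (9.43 to 16.4).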

How the data were processed

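The single table that the authors deposited holds raw UMI counts, and each GEO sample is 1 cell of 1 inDrops library, per the labels. TopHat2, SAMtools and mm10 stand in the submitters' processing notes, with no versions. The annotation and strand setting are not given in the sources used here. Cell totals were below the label's UMI number in all 2239 cells, by a median of 1.49%.

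Cells with 500 or more UMIs were kept (2055, with a median of 974 UMIs and 551 genes). Levels are pooled UMIs per 10000 UMIs. Intervals at 95% are exact Poisson for levels, Clopper-Pearson for shares and exact conditional for ratios. The ratio step was tested on simulated counts.

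Clusters came from Pearson residuals (overdispersion 100) of 1000 variable genes (each found in 10 or more cells), with 15 components, 20 neighbors and Leiden resolution 0.8. Proteasome, pathway, interferon, ribosomal and T cell receptor genes were left out of these features. A cluster name needed 3 markers with 5 or more UMIs at 1.5-fold or more, with 10 CPM added on both sides, thresholds set after the data were seen. Scrublet marked 8 cells (0.389%) where 5% was set as the expected share, so it did not show that it worked here, and doublets were kept. The software was Python 3.11.15 with numpy 2.4.6, scipy 1.17.1, scikit-learn 1.9.0, scanpy 1.11.5 and leidenalg 0.10.2.

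The members, lists and comparisons were chosen with earlier results of these data known. Named in every comparison were the 5 immunoproteasome genes, their 3 constitutive partners, Psme3, Psme4 and the 3 highest and 3 lowest other members. Of the other pathway genes the 3 largest log2 ratios in either direction, and Tap1, Tap2, Irf1, Nlrc5 and Pomp, were named in comparisons described at length. Some genes that the rule named are left out here. A gene outside this rule was picked once its value was known. Alternatives changed the cell minimum, the scale, the thinning, list and gene thresholds, doublets and clustering. Restricting cells to 0 effector or 0 proliferation UMIs, to 700 to 1300 UMIs or to 1 cluster was added after seeing the data.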

Additional observations from a re-analysis of the deposited data

Results flagged for a closer look

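Cells with fewer than 500 UMIs, which no comparison used, also held immunoproteasome transcripts. The 5 genes had 94 UMIs there, a level of 13.3 CP10K (exact Poisson interval 10.7 to 16.3), against 14.9 CP10K in the kept cells. The constitutive genes stood at 31.4 CP10K there. This level is listed because it comes from data outside the comparisons. It overlapped that of the kept cells.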

How the results depend on the processing

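All values here are log2 ratios unless a scale is named, and the cause of each move was not tested. Without ribosomal UMIs in the total the levels were 23.1 CP10K for immunoproteasome and 50.2 CP10K for constitutive genes, and the constitutive ratio was -0.0023 for the effector list and -0.0054 for activated against resting Treg-like cells. For the biosynthetic list the ratio of immunoproteasome to constitutive genes was -0.38 at 3 or more list UMIs, 0.058 in unthinned cells, -0.025 with 1000 UMIs per cell, 0.16 within cluster 2, -0.64 within cluster 3 and -0.56 within cluster 4, and the constitutive ratio was -0.022 within cluster 2. For the GTPase list the ratio of both groups was 0.62 within cluster 3 and 0.066 within cluster 4. It was above 0 in 17 of 17 alternatives for each interferon list. For immediate early genes it was 0.35 with 1000 UMIs per cell and -0.20 in cells with 0 effector UMIs. For resting genes it was -0.15 within cluster 1, where the constitutive ratio was 0.29, and that was 0.043 in cells of 700 to 1300 UMIs. For effector genes the immunoproteasome ratio was -0.0092 within cluster 1, and within cluster 3 the constitutive ratio was -0.18 and the ratio of both groups 0.54. The proliferating-like ratio of both groups was -0.64 with 30 components. Counts of members past 1.5-fold moved most: for the GTPase list 0 to 7 higher and 1 to 7 lower, for the resting list 1 to 12 higher, and for activated against resting Treg-like cells 2 to 12 higher. Catalytic pair shares ran from 84.2% to 85.5% for Psmb8, 38.6% to 43.2% for Psmb9 and 68.3% to 68.8% for Psmb10. Settings that gave no class of a name gave no value for its comparison. No paired analysis was possible because there was 1 library.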
